A study of Mus musculus with 31 samples.

Results

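Lateral olivocochlear (LOC) neurons, recorded in the lateral superior olive, were split by how strongly they expressed Calca, the gene for calcitonin and calcitonin gene-related peptide (CGRP). Of 31 single neurons in the study, 18 were LOC neurons and 13 were medial olivocochlear (MOC) neurons from the ventral nucleus of the trapezoid body. LOC cells were kept where Chat, Slc18a3 and Slc5a7, the genes for acetylcholine synthesis, vesicular loading and choline uptake, had at least 10 reads in sum, which left 14 of 18. The 3 cells with at least 10000 Calca counts when a library is scaled to 1000000 counts (CPM), LOC08, LOC15 and LOC18, are called peptide-rich here, and the remaining 11 are called the other LOC cells. Calca stood at 18871, 35892 and 26921 CPM in these 3 cells and between 2.11 and 3027 CPM, with a median of 1246 CPM, in the other 11. The lowest peptide-rich cell, LOC08 with 18871 CPM, and the next cell below, LOC12 with 3027 CPM, were the cells nearest to the threshold. Calca was the measured value that the cells were chosen by, and it was left out of everything that follows except where its value is printed for reference.

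All cells came from acute brainstem slices of ChAT-IRES-Cre; tdTomato mice, in which Cre expressed from the Chat locus switches on a red fluorescent protein that marks neurons with present or past Chat expression. The labels give the genotype wild-type and the treatment as RNA sequencing after patch-clamp recording for every cell of both sides, and no cell was recorded under another condition. Cytoplasm was drawn into the recording pipette, so each library holds the contents of a single aspirated neuron and whatever the pipette took up around it. The labels name no animal, age or sex. Cells of the same animal therefore could not be told from cells of different animals, each side counts as 1 sample, and no test was made. The comparison describes these cells, and the intervals given below cover counting error only. The question it addresses is which other genes go with a high CGRP gene level among cholinergic LOC neurons.

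LOC neurons send unmyelinated axons from the brainstem to the cochlea, where they contact the dendrites of auditory nerve fibres beneath the inner hair cells, while MOC neurons contact outer hair cells. Besides acetylcholine, LOC neurons are known to contain peptides, among them CGRP, urocortin, opioid peptides and neuropeptide Y, and their peptide content differs from cell to cell. A neuropeptide is made as a precursor, cleaved by prohormone convertases, trimmed by carboxypeptidases, amidated by Pam, and stored in dense-core vesicles that are released by calcium-triggered exocytosis.

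The 4 peptide genes of the comparison are Calca, its paralog Calcb, Ucn (urocortin) and Npy (neuropeptide Y). The 250 bases upstream of the RefSeq gene start (GRCm38.p6) are shown for the 3 genes with an entry, because these are the genes whose levels stood together in the same cells. Capitals mark TGACG or TGACGTCA, the latter being the cAMP response element, searched on both strands.
Ucn (chr5:31138896-31139145, minus strand): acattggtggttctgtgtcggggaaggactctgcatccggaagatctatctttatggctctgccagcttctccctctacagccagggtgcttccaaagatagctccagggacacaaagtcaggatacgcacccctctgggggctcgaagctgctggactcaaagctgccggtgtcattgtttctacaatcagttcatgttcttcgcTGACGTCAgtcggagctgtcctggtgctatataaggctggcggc
Calca (chr7:114636358-114636607, minus strand): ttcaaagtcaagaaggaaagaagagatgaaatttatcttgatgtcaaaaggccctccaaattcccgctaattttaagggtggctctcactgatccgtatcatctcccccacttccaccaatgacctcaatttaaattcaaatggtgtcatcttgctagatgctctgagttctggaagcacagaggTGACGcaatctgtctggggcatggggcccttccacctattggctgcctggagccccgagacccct
Npy (chr6:49822460-49822709, plus strand): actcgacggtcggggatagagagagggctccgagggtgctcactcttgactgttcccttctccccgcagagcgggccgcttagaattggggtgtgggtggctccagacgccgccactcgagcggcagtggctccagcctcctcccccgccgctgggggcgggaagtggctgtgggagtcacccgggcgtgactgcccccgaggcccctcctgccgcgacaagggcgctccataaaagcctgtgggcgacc
The Ucn window holds TGACGTCA, which contains TGACG on each strand, the Calca window holds TGACG alone, and neither string is in the Npy window. Of 32851 promoter windows of the same length, 1.55% hold TGACGTCA and 17.8% hold TGACG. A match is a description of the letters and was not tied to the expression values. Calca and Calcb lie on the same chromosome and are alike in the exon that encodes the CGRP peptide. The longest exact run shared by the coding sequences of Calca-201 (387 bases, the CGRP form) and Calcb-201 (393 bases) is 60 bases, and is shown because it bears on which gene a read is counted for.
Shared run of Calca and Calcb: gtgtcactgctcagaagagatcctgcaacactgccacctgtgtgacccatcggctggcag
It starts at base 227 of the Calca coding sequence and at base 230 of the Calcb one. None of the 920 windows of 75 bases in the Calca-201 transcript, 75 bases being the read length, occurs in a Calcb transcript.

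Library depth was alike on both sides, while other library features were not. The peptide-rich cells held 781664, 926172 and 792548 counts over mouse genes, and the other cells held 637279 to 1404896 with a median of 771556. The number of genes with a read was 10051, 9530 and 10849 in the peptide-rich cells and 6654 to 18414, with a median of 13594, in the others. Reads of the 3 cholinergic genes summed to 352, 1613 and 723 in the peptide-rich cells and to 11 to 1355, with a median of 346, in the others, where LOC17 with 11 and LOC06 with 28 were lowest. The mitochondrially encoded share of counts was 3.64%, 1.18% and 5.31% against 5.12% to 16.4%. The tdTomato sequence was read 9, 29 and 9 times in the peptide-rich cells and 0 to 51 times in the others. Across genes, with the 4 peptide genes left out, the median Pearson correlation of log2(CPM + 1) was 0.57 over the 3 pairs of peptide-rich cells, 0.56 over the 55 pairs of other cells and 0.56 over the 33 pairs that cross the sides. The 3 medians lay close together, with ranges of 0.54 to 0.59, 0.39 to 0.74 and 0.44 to 0.67. The part of gene detection and of the mitochondrial share in the results below was not tested.

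**Figure D1:**
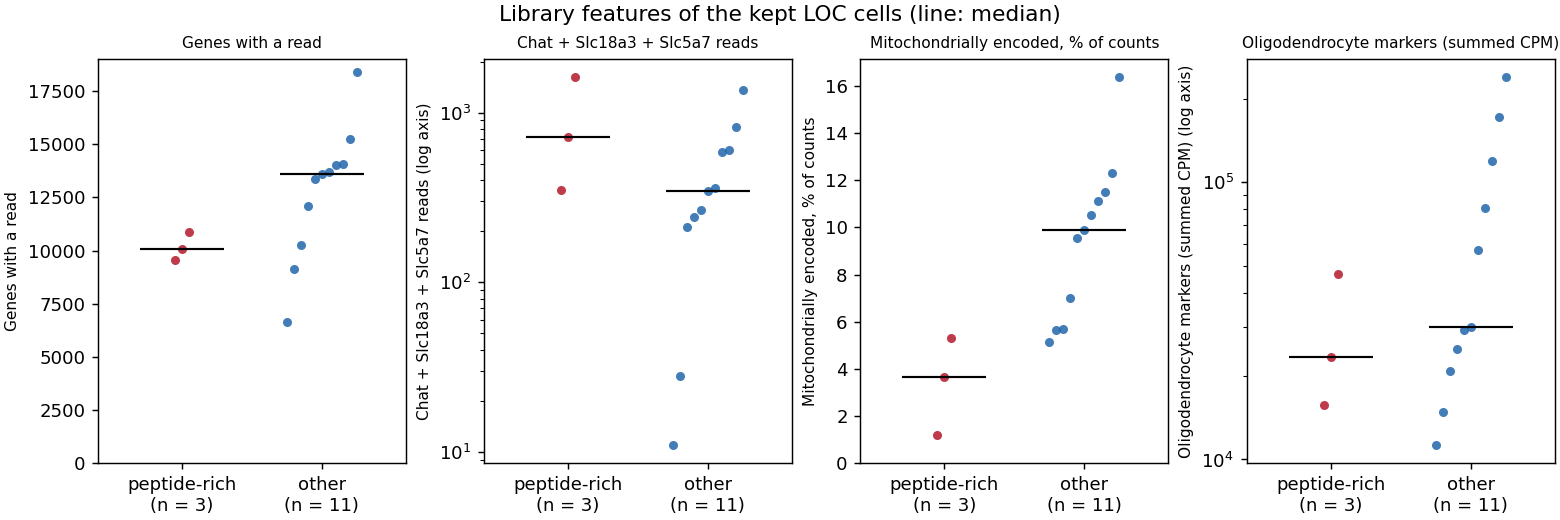
Library features of the 14 kept LOC cells, by side: the number of genes with a read, summed Chat, Slc18a3 and Slc5a7 reads (log axis), the mitochondrially encoded percent of counts, and summed CPM of 11 oligodendrocyte markers (log axis). Points are cells and lines are medians; the 3 peptide-rich cells lie at 9530 to 10849 genes and at 1.18% to 5.31% mitochondrial counts, toward the low end of the other cells in both.

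Ucn and Npy were higher in each of the 3 peptide-rich cells than in any of the other 11, and Calcb was higher in all but 1 of them. Ucn, a corticotropin-releasing factor family peptide, stood at 1103, 3022 and 1753 CPM in LOC08, LOC15 and LOC18. In the other cells it ranged from 0 to 504 CPM with a median of 85.5 CPM, and it was read in 10 of 11. The 2 sides did not overlap, and LOC05, at 504 CPM, came nearest. The mean of log2(CPM + 1) was higher by 5.23 in the peptide-rich cells, at 10.82 ± 0.73 (SD, n = 3 cells) against 5.58 ± 2.88 (SD, n = 11 cells). From summed counts, Ucn stood at 2020 CPM (95% exact Poisson interval 1964 to 2076) in the peptide-rich cells and at 161 CPM (153 to 169) in the others.

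Npy, a peptide widespread in the brain and in sympathetic neurons, stood at 830, 786 and 594 CPM in the peptide-rich cells. The other cells ranged from 0 to 104 CPM with a median of 8.86 CPM, and 10 of 11 held a read. The sides did not overlap, LOC03 being the highest of the others. The mean log2(CPM + 1) was 9.51 ± 0.26 (SD, n = 3 cells) against 3.44 ± 2.32 (SD, n = 11 cells), a difference of 6.07. Summed counts gave 739 CPM (706 to 774) against 29.6 CPM (26.3 to 33.2).

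Calcb, which encodes the beta form of CGRP, stood at 1672, 623 and 294 CPM. In the other cells its median was 0 CPM, it was read in 4 of 11 (36.4%), and its highest value was 308 CPM in LOC02. LOC02 thus lay above LOC18, so the sides overlapped, and the next of the other cells stood at 20.5 CPM. The difference of mean log2(CPM + 1) was 7.60, from 9.40 ± 1.26 (SD, n = 3 cells) against 1.80 ± 2.79 (SD, n = 11 cells). The 7 other cells without a Calcb read held 8464 Calca reads in sum, from 2 to 2447 each, which puts the limit from 3 counts at 0.0354 Calcb reads per 100 Calca reads. In the peptide-rich cells the same ratio was 8.86, 1.74 and 1.09.

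**Figure D2:**
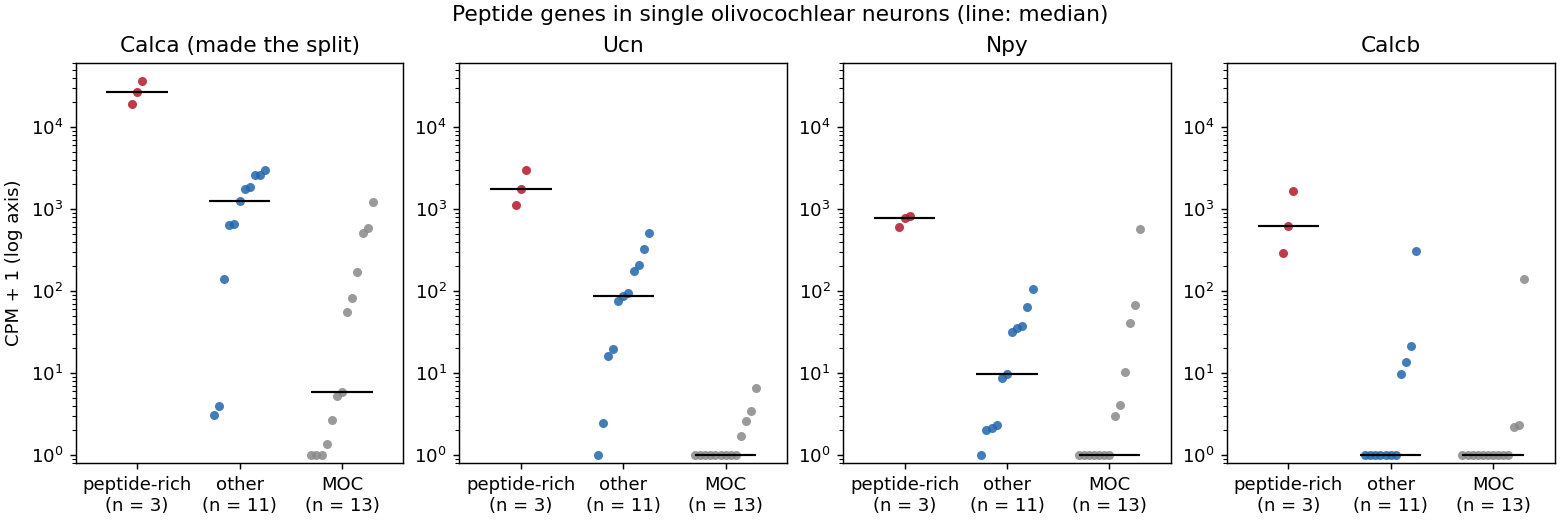
CPM + 1 (log axis) of Calca, which made the split, and of Ucn, Npy and Calcb in 3 peptide-rich LOC cells, 11 other LOC cells and 13 MOC cells; points are cells and lines are medians. Every peptide-rich cell lies above every other LOC cell for Ucn and Npy, and 1 other LOC cell reaches 308 CPM for Calcb.

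The peptide genes were not in a fixed ratio to Calca. Per 100 Calca reads, the peptide-rich cells held 5.84, 8.42 and 6.51 Ucn reads and 4.40, 2.19 and 2.21 Npy reads. LOC11, LOC12 and LOC13, with Calca at 2568, 3027 and 1246 CPM, held 6.86, 6.87 and 6.87 Ucn reads per 100 Calca reads, inside the range of the peptide-rich cells at a lower level of both genes. LOC01 held 0.817 and LOC05 held 365, since LOC05 had 504 CPM of Ucn beside 138 CPM of Calca. LOC03 had Calca, Ucn and Npy at 2560, 327 and 104 CPM but no Calcb read, and LOC02 had 47.9 Calcb reads per 100 Calca reads. The 4 peptide genes together took 2.25%, 4.03% and 2.96% of all counts in the peptide-rich cells and at most 0.329% in any other. LOC06 and LOC17, the cells with the fewest cholinergic reads, were also the lowest for Calca and Ucn. With these 2 left out by a minimum of 50 cholinergic reads, the differences of mean log2(CPM + 1) were 4.14 for Ucn, 5.79 for Npy and 7.57 for Calcb.

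**Figure D3:**
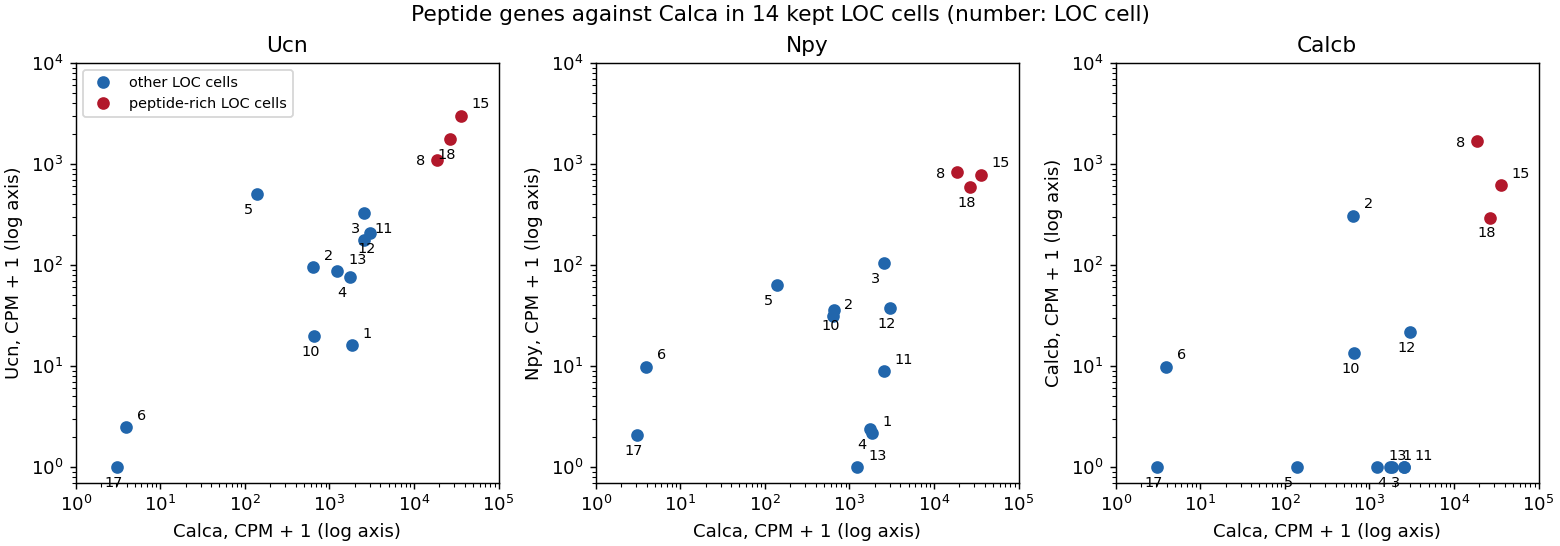
Ucn, Npy and Calcb against Calca in the 14 kept LOC cells, as CPM + 1 on log axes, with the cell's number beside each point. The 3 peptide-rich cells lie at the right; LOC05 holds 504 CPM of Ucn at 138 CPM of Calca, and 7 other cells lie at 0 Calcb.

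In MOC neurons Ucn reached at most 5.58 CPM, Calcb 141 CPM and Npy 567 CPM, with medians of 0 CPM, so the lowest peptide-rich cell stood above each of the 13 MOC cells for all 3 genes. Calca in MOC cells had a median of 4.88 CPM and a maximum of 1229 CPM. Of the 4 LOC cells that were not kept, none held a Calcb read, and Ucn and Npy reached 11.2 and 93.5 CPM.

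For all genes, a gene was said to meet the size rule where the CPM from summed counts was at least 2 times that of the opposite side (with 3 counts over a side as the lowest value), the mean log2(CPM + 1) differed by at least 1, and a read was present in all 3 peptide-rich cells or, for the reverse direction, in at least 50% of the other cells. Of 18263 genes with a read in at least 3 kept cells, 1377 (7.54%) met it with the higher value in the peptide-rich cells and 2748 (15%) with the higher value in the others. The median difference over all genes was -0.30 on the log2(CPM + 1) scale. With a pseudocount of 10 it was -0.07, and 51.8% of the genes meeting the rule were then higher in the peptide-rich cells, compared with 33.4% before. When only the 4 other cells with the fewest detected genes (6654 to 12113, LOC11, LOC12, LOC13 and LOC17) were used, the median of all genes was 0.15 and that share was 44.8%. LOC17 of this set held 11 cholinergic reads, the fewest of the kept cells. Its oligodendrocyte markers summed to 238537 CPM, the highest of the kept cells. In 63 genes (0.345%) all 3 peptide-rich cells lay above all 11 others with at least 5 reads in each, and in 31 (0.170%) all 3 lay below all 11.

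Of 40 listed neuropeptide genes, 25 were considered. Toward the peptide-rich cells 3 (12%, beside 7.54% of all genes) met the size rule, Ucn, Npy and Calcb, and toward the others 1 (4%, beside 15%), Cck (cholecystokinin), with a median difference of 0.21 against -0.30 for all genes (-0.28 without LOC18). Those 3 are the peptide genes the comparison was set up with, so their count is no independent evidence for the list. No other considered neuropeptide met the rule toward the peptide-rich cells. Without LOC15, 6 were higher in the peptide-rich cells. Cck stood at 2.56, 3.24 and 1.26 CPM against 0 to 97.5 CPM with a median of 4.22 CPM, and its difference was -1.23. With the Calca threshold at 3000 CPM, which moves LOC12 across, its difference was 0.31, and without LOC06, LOC12 or LOC18 it was -0.86, -0.88 and -0.97 and no longer met the rule. Pdyn, the dynorphin precursor, falls outside the rule and is named after its values were seen: LOC15 and LOC18 held 2180 and 1345 CPM, LOC08 held none, and the others reached 118 CPM. Penk, the enkephalin precursor, stood at 228 CPM in LOC18, 2.56 CPM in LOC08 and 0 in LOC15, against a highest value of 186 CPM in the others. Of Pdyn and Penk, LOC18 thus held both, LOC15 held Pdyn alone, and LOC08 held neither above 2.56 CPM.

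Genes that process peptide precursors were higher in the peptide-rich cells in 5 of 16 considered (31.2%, beside 7.54% of all genes) and higher in the others in 0, with a median difference of 0.63. The counts were 2 and 1 with the authors' normalized values (median 0.37), beside 1008 and 3159 of 16251 genes. They were 2 and 0 with at least 50 cholinergic reads (median 0.40), beside 1257 and 2874 of 16917 genes. With each cell thinned to 300000 counts they were 3 and 1, beside 1194 and 2117 of 14588 genes. They also rested on LOC15: without it 1 gene was higher in the peptide-rich cells and 1 in the others, and without LOC02 or LOC17 the counts were 3 and 2. Pcsk1, the prohormone convertase PC1/3, stood at 159, 326 and 112 CPM against 0 to 218 CPM with a median of 39.3 CPM, a difference of 3.35. Cpd, a carboxypeptidase that removes basic residues, stood at 35.8, 119 and 65.6 CPM against a median of 20.7 CPM and a highest value of 116 CPM, a difference of 2.02. The 3 cells were high for both genes, but some of the other cells reached the same levels. Without LOC15 the differences were 2.93 and 1.59, and neither gene met the rule; Cpd also did not without LOC02, LOC03 or LOC17, at 1.75, 1.88 and 1.61.

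Pam, the enzyme that amidates CGRP, neuropeptide Y and urocortin, stood at 498, 653 and 265 CPM against a median of 196 CPM and a highest value of 690 CPM, a difference of 1.42. Scg5, the chaperone of PC2, stood at 150, 442 and 534 CPM against 43.3 to 349 CPM, a difference of 1.11. Scg5 did not meet the rule without LOC15, LOC18 or LOC17, at 0.90, 0.76 and 0.93. Pam did not without LOC15 (1.14) or without LOC02, LOC05, LOC06, LOC10 or LOC11 (1.08 to 1.43). Pcsk7 met the rule through LOC08 alone, at 452 CPM beside 1.08 and 6.31 CPM, and its difference of 1.65 became -0.63 without that cell. Cpe, the main carboxypeptidase of peptide processing, was high on both sides, at 841, 1834 and 939 CPM against 232 to 1432 CPM. Pcsk2, the convertase PC2, was low on both, at 13 to 22.7 CPM against a median of 16.1 CPM.

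Among 20 genes of granins and dense-core vesicle release, 6 (30%) were higher in the peptide-rich cells and 5 (25%) in the others, beside 7.54% and 15% of all genes. The median difference was -0.09, and it was 0.80 without LOC08 and -0.55 without LOC15. With the Calca threshold at 3000 CPM, 3 were higher in the others, beside 2475 of all 18263 genes. Ptprn, a membrane protein of dense-core vesicles, stood at 1110, 1163 and 514 CPM against 3.99 to 395 CPM with a median of 231 CPM. The sides did not overlap, and the difference was 2.57. Hid1, needed for dense-core vesicle formation, stood at 1442, 466 and 709 CPM against a median of 170 CPM and a highest value of 612 CPM, a difference of 2.54. Syt5, a vesicle synaptotagmin, stood at 99.8, 389 and 442 CPM against a highest value of 135 CPM, a difference of 2.52, and LOC08 lay within the other cells. Vgf, a granin-like precursor, stood at 299, 607 and 336 CPM against a median of 108 CPM and a highest value of 402 CPM, a difference of 2.5. Scg3 and Cadps, a granin and a priming factor, differed by 1.88 and 1.60, and Cadps, at 1.25 without LOC08, then no longer met the rule.

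In the reverse direction, Stxbp5l, an inhibitor of vesicle release, stood at 1.28, 1.08 and 0 CPM against 0 to 385 CPM with a median of 80.0 CPM, a difference of -4.42. Baiap3, a priming factor, differed by -2.54, Ptprn2, the paralog of Ptprn, by -2.08, and the calcium sensors Syt7 and Syt9 by -1.64 and -1.35. Syt9 did not meet the rule without LOC08, LOC15 or LOC17, at -0.88, -0.88 and -0.81. Syt7 stood at 11.5, 15.1 and 24 CPM against a median of 93.0 CPM and a highest value of 137 CPM. The vesicle genes therefore divided by member. Chga, Chgb and Scg2, the classical granins, differed by 0.28, -0.38 and 0.03 and met the rule in neither direction.

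**Figure D4:**
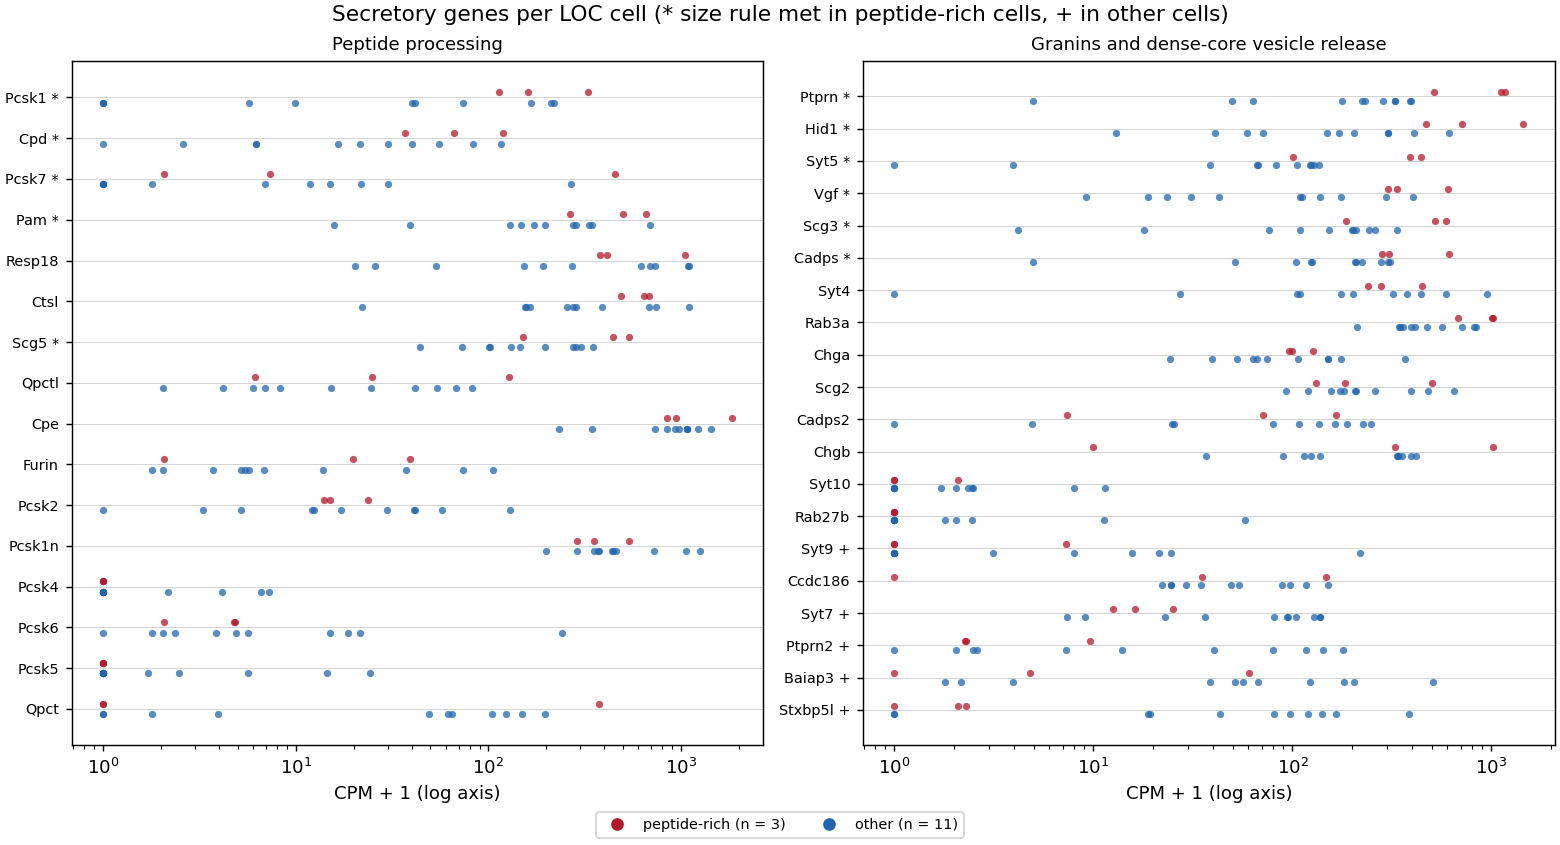
CPM + 1 (log axis) of the 16 peptide processing genes and 20 genes of granins and dense-core vesicle release in the 3 peptide-rich and 11 other LOC cells, 1 point per cell, ordered by difference. An asterisk marks genes meeting the size rule with the higher value in the peptide-rich cells (5 and 6 genes) and a plus sign those higher in the other cells (0 and 5).

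Genes of general vesicle fusion were likewise split. Of 21, 4 (19.0%, beside 7.54% of all genes) were higher in the peptide-rich cells and 5 (23.8%, beside 15%) in the others. With the Calca threshold at 3000 CPM the counts were 3 and 2, beside 998 and 2475 of all 18263 genes. Unc13a, a priming factor of synaptic vesicles, stood at 237, 465 and 132 CPM against a median of 41.3 CPM and a highest value of 228 CPM, a difference of 2.83. Its relative Unc13c differed by -4.21, at 0, 0 and 24 CPM against a median of 87.6 CPM. Syt1, the fast calcium sensor of synaptic release, stood at 99.8, 0 and 2.52 CPM against 5.69 to 366 CPM with a median of 153 CPM, a difference of -3.96. Sv2b differed by -2.63, and Syn1, a synapsin that tethers vesicles, by 2.07. Unc13a overlaps Colgalt1 on the opposite strand, and the library kit does not mark strand, so reads of the overlap cannot be told apart.

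The sum of Chat, Slc18a3 and Slc5a7 reads kept the cells, so these 3 genes are part of the rule and are given as values only. Of the other 12 cholinergic and olivocochlear identity genes, 5 (41.7%, beside 7.54% of all genes) were higher in the peptide-rich cells and 1 (8.33%, beside 15%) in the others, with a median difference of 0.90. Without LOC15 the first count was 3 and the median 0.52. Chat stood at 102, 153 and 180 CPM against 0 to 370 CPM with a median of 89.3 CPM, and Slc5a7 at 84.4, 52.9 and 285 CPM against a median of 18.8 CPM and a highest value of 582 CPM. Slc18a3, which lies within Chat on the same strand, stood at 264, 1535 and 447 CPM against a median of 201 CPM and a highest value of 753 CPM. Its difference was 2.75, or 2.03 without LOC15. LOC15 lay above every other kept cell for Slc18a3, and LOC08 and LOC18 lay within the range of the others.

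Gata3, a transcription factor of inner ear efferent neurons, stood at 298, 475 and 271 CPM against 0 to 249 CPM with a median of 107 CPM, so the sides did not overlap and the difference was 2.85. Gata2 stood at 237, 240 and 384 CPM against a median of 73.2 CPM and a highest value of 460 CPM, a difference of 3.35. Slc44a1, a choline transporter and the 1 gene of the list higher in the other cells, stood at 101, 11.9 and 0 CPM against 5.59 to 207 CPM with a median of 75.4 CPM, a difference of -2.76. Without LOC15 or LOC18 its difference was -2.88 and -1.04, and it did not meet the rule. Tbx20, a hindbrain motor neuron factor, was read in all 3 peptide-rich cells at 34.5, 79.9 and 7.57 CPM and in 4 of the other 11. Isl1, a factor of cholinergic and motor neurons, was almost absent from LOC08 at 1.28 CPM and stood at 309 and 95.9 CPM in LOC15 and LOC18. Its difference of 1.37 became -0.090 without LOC15 and 0.75 without LOC18, and it was 0.97 without LOC02, LOC06 or LOC17, all below the rule. With only cells of at least 50 cholinergic reads, which drops LOC06 and LOC17, the median of the 12 identity genes was 0.47 and the counts were 4 and 1.

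The genes that an earlier look at these data found higher in LOC than in MOC neurons form a list chosen on these same libraries, and it is no independent evidence of direction. Of its 11 genes, 6 (54.5%, beside 7.54% of all genes) were higher in the peptide-rich cells and 0 (beside 15%) in the others. The median difference was 2.74, or 1.88 with cells of at least 50 cholinergic reads. Anxa2, a calcium-dependent membrane-binding protein, stood at 1792, 3057 and 968 CPM against 0 to 923 CPM with a median of 157 CPM, and the sides did not overlap. Cpne7, a copine, stood at 2099, 1291 and 770 CPM against a median of 135 CPM and a highest value of 898 CPM, a difference of 4.54. Bmp3, Col4a2 and Prmt2 differed by 2.77, 2.74 and 2.02, and Bmp3, at 2.42 without LOC15, then no longer met the rule. Without LOC01, 10 of the 11 met it, and without LOC15, 5 did. Without LOC08, 6 were higher in the peptide-rich cells and 1 in the others. Of the 12 genes higher in MOC neurons, 0 (beside 7.54% of all genes) were higher in the peptide-rich cells. In the other LOC cells 2 were higher, Galnt9 and Cdh22, and this share of 16.7% is near the 15% of all genes.

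Genes of other transmitters were higher in the peptide-rich cells in 2 of 13 (15.4%, beside 7.54% of all genes) and in the others in 0, and in 1 of 13 with the Calca threshold at 3000 CPM or without LOC08. Ddc, aromatic amino acid decarboxylase, stood at 198, 143 and 47.9 CPM against 0 to 76.9 CPM with a median of 3.48 CPM, a difference of 4.39. Gad2, a GABA-synthesizing enzyme, stood at 615, 281 and 47.9 CPM against a median of 62.4 CPM and a highest value of 867 CPM, a difference of 2.22 that became 1.43 without LOC08 and no longer met the rule. Th, the enzyme before Ddc in catecholamine synthesis, was low in the peptide-rich cells at 3.84, 0 and 7.57 CPM. Inhibitory neuron markers, which include Gad2, summed to 185 to 658 CPM in the peptide-rich cells and 15.8 to 949 CPM in the others. Their part in the Gad2 values was not tested.

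Of 29 peptide receptor genes, 1 (3.45%, beside 7.54% of all genes) was higher in the peptide-rich cells. In the others 4 (13.8%) were higher, near the 15% of all genes. The first count was 3 without LOC18. Oprl1, the nociceptin receptor, stood at 348, 929 and 584 CPM against 0 to 473 CPM with a median of 79.6 CPM, a difference of 3.44. Hcrtr2, an orexin receptor, had no read in the peptide-rich cells, which allows up to 1.2 CPM over the side, against 0 to 176 CPM with a median of 43.9 CPM. Crhr1, the receptor that binds urocortin, stood at 0, 0 and 3.79 CPM against 0 to 82.6 CPM with a median of 10.4 CPM, a difference of -2.36. Of the receptor genes for CGRP, Calcrl was low on both sides, reaching 1.28 CPM in the peptide-rich cells and 20.9 CPM in the others. Its partner Ramp1 stood at 0, 63.7 and 217 CPM against a median of 73.8 CPM. These CGRP receptor genes are named for their link to the split gene and met the rule in neither direction.

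Like all genes (7.54% against 15%), ion channels and receptors for fast transmitters met the rule toward the other cells in more cases than toward the peptide-rich cells. The counts, peptide-rich against other, were 0 and 5 of 16 calcium channel genes, 0 and 11 of 37 potassium channel genes, 1 and 12 of 29 glutamate receptor genes and 1 and 7 of 19 GABA and glycine receptor genes, so 31.2%, 29.7%, 41.4% and 36.8% of the lists were higher in the others. With a pseudocount of 10 the counts were 0 and 3, 0 and 5, 0 and 6, and 1 and 2, beside 1128 and 1051 of all 18263 genes. With the Calca threshold at 3000 CPM they were 0 and 2, 0 and 6, 1 and 4, and 2 and 3, beside 998 and 2475 of all genes, and the GABA and glycine median was 0.12. Without LOC08 they were 3 and 5, 4 and 10, 3 and 8, and 2 and 4, beside 2003 and 2984 of 17951 genes. Cacnb4, a calcium channel beta subunit, stood at 1.28, 1.08 and 11.4 CPM against 6.39 to 140 CPM with a median of 64.0 CPM, a difference of -3.89. Kcna2, an axonal potassium channel, stood at 2.56, 46.4 and 17.7 CPM against 13 to 236 CPM with a median of 160 CPM, a difference of -2.83. Gria4, an AMPA receptor subunit, stood at 21.7, 11.9 and 8.83 CPM against 9.49 to 246 CPM with a median of 104 CPM, a difference of -2.59. Gphn, the scaffold of inhibitory synapses, stood at 1.28, 5.40 and 1.26 CPM against a median of 50.2 CPM, a difference of -2.46.

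More genes were detected in most of the other cells, and the part of this in the channel and receptor values was not tested. Against only the 4 other cells with the fewest detected genes, the medians were 0.01 for calcium channels, -0.29 for potassium channels, -0.12 for glutamate receptors and 0.10 for GABA and glycine receptors, beside 0.15 for all genes. The counts were then 1 and 4, 1 and 7, 3 and 12, and 1 and 3, beside 1684 and 2075 of 11124 genes considered in that setting. Of 19 sodium, HCN and leak channel genes, 3 (15.8%) met the rule in each direction. Of all genes, 7.54% met it toward the peptide-rich cells and 15% toward the others. The list's counts were 1 and 6 with the authors' normalized values, beside 1008 and 3159 of 16251 genes. They were 3 and 1 with a pseudocount of 10, beside 1128 and 1051 of 18263 genes. Without LOC02 the counts were 1 and 4, without LOC17 1 and 3, and without LOC18 3 and 6. Scn3b met the rule toward the peptide-rich cells in all 24 alternatives and differed by 2.97 to 3.73 with each cell left out. Hcn3 met it in 14 and Nalcn in 20. Nalcn, the sodium leak channel, stood at 250, 48.6 and 82.0 CPM against a median of 27.1 CPM and a highest value of 211 CPM, a difference of 1.98. Without LOC08, LOC02 or LOC17 its difference was 1.32, 1.88 and 1.51 and did not meet the rule.

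**Figure D5:**
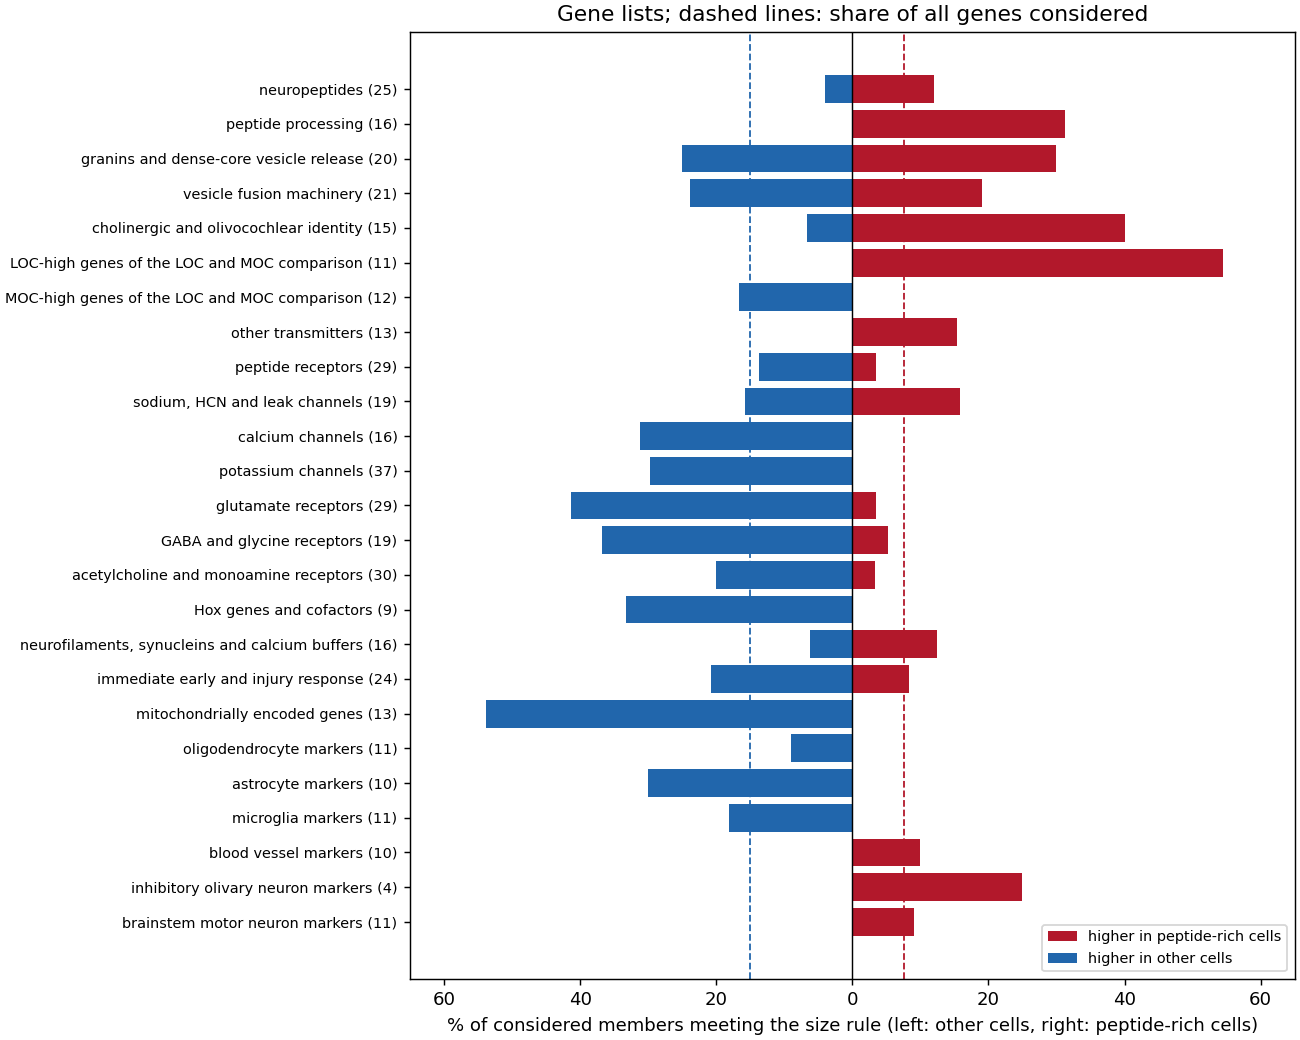
Percent of the considered members of 25 gene lists (number of members in brackets) that met the size rule with the higher value in the other LOC cells (left) or in the peptide-rich cells (right). Dashed lines give the share of all genes, 15% and 7.54%; peptide processing has 5 of 16 on the right and 0 on the left, and potassium channels 0 of 37 on the right and 11 on the left. The identity list is drawn with Chat, Slc18a3 and Slc5a7, which kept the cells, and the neuropeptide list with Ucn, Npy and Calcb, the peptide genes of the comparison.

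The 10 widest differences among genes without overlap included Ucn and Npy. The widest was Adam8, a membrane metalloprotease, at 165, 213 and 70.7 CPM in the peptide-rich cells, with a read in 1 of the 11 others at 51.8 CPM and a difference of 6.57. Gm43175, a predicted gene, stood at 58.8, 131 and 78.2 CPM against at most 3.48 CPM. Orc5, a subunit of the origin recognition complex, stood at 89.6, 296 and 132 CPM against at most 47.1 CPM, and Trim27, a ubiquitin ligase, at 184, 127 and 228 CPM against at most 107 CPM. Cracdl, Pusl1, Nsmce4a and Dcp1a differed by 5.77, 5.60, 4.86 and 4.63. Cells outside the comparison exceeded the lowest peptide-rich cell for several of these genes. Among LOC cells not kept, Adam8 reached 139 CPM, Cracdl 176 CPM and Pusl1 171 CPM. In MOC cells Gm43175 reached 301 CPM, Pusl1 363 CPM, Trim27 537 CPM, Nsmce4a 202 CPM and Dcp1a 160 CPM. Orc5 stayed below that cell, with at most 89.3 CPM in MOC cells and 5.61 CPM in LOC cells not kept. Pusl1 and Dcp1a overlap Ints11 and Cacna1d on the opposite strand, and Nsmce4a overlaps Fgfr2, so their reads may be shared.

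The 10 genes with the widest differences toward the other cells included no peptide or transmitter gene. Trak2, an adaptor of mitochondrial transport, stood at 3.84, 0 and 7.57 CPM against 39.3 to 738 CPM with a median of 192 CPM, a difference of -5.85 with no overlap. Unc119, a lipid-binding trafficking protein, had no read in the peptide-rich cells and stood at 5.59 to 215 CPM in the others. From summed counts it was at least 79.5-fold lower in the peptide-rich cells, against a floor of 3 counts over the side. Stxbp2, a syntaxin-binding protein of exocytosis, also had no read there and stood at 0 to 486 CPM with a median of 129 CPM, at least 139-fold lower. 9530068E07Rik had no read there and reached 285 CPM. Abhd4, Pygb, Ak3, Ttll5, Rab8a and Brms1l differed by -5.36 to -4.85.

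Mitochondrially encoded transcripts were lower in the peptide-rich cells for all 13 genes, with a median difference of -1.42. Of these, 7 (53.8%, beside 15% of all genes) met the rule. Without LOC15, 4 met the rule and the median was -0.86. The transcript mt-Nd4, a subunit of complex I, stood at 5092, 1641 and 4748 CPM against 5381 to 17088 CPM, without overlap. Against the 4 other cells with the fewest detected genes the median was -1.67. LOC18, at 5.31% mitochondrial counts, was within the range of the others for the share as a whole.

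Markers of neighbouring cell types were present on both sides. The 11 oligodendrocyte markers summed to 46759, 15779 and 23379 CPM in the peptide-rich cells and 11296 to 238537 CPM in the others, with 0 genes of the list higher in the peptide-rich cells and 1, Ermn, in the others. Astrocyte markers summed to 1460 to 2723 CPM against 1524 to 9015 CPM, with 0 of 10 higher in the peptide-rich cells and 3 in the others. Microglia markers summed to 145 to 525 CPM against 32.4 to 1319 CPM, with 0 and 2 of 11 meeting the rule, and Cx3cr1 was at 0 in all 3 peptide-rich cells. Blood vessel markers summed to 14 to 17.9 CPM against 0 to 110 CPM, with Cldn5 at 0 in all 3, and Rgs5, at 10.2 to 14 CPM, the 1 gene of 10 that met the rule. Brainstem motor neuron markers summed to 65.6 to 622 CPM against 17.6 to 1067 CPM, with 1 of 11, Tbx20, higher in the peptide-rich cells. Toward the other cells, 9.09% of oligodendrocyte, 30% of astrocyte and 18.2% of microglia markers met the rule, beside 15% of all genes. Toward the peptide-rich cells, 10% of blood vessel and 9.09% of motor neuron markers met it, beside 7.54% of all genes. The median differences of these 5 lists were -0.34, -0.96, -0.31, -0.80 and -0.25, beside -0.30 for all genes, and their part in the other differences was not tested.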

How the data were processed

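Single olivocochlear neurons were aspirated after recording and made into Smart-seq2 and Nextera libraries, read as paired ends of 75 bases, per the labels' design text. The authors deposited raw counts per gene and a table of normalized signal, CPM on TMM-adjusted library sizes per its header. The submitters' processing notes name bcl2fastq, STAR 2.5.2, DESeq2, edgeR, limma and the builds GRCm38 and mm10, and the sources used here give neither their roles nor their settings. CPM was computed from the deposited counts over 55421 mouse gene rows, leaving out 19 added sequences, with a pseudocount of 1 on the log2 scale. Kept cells held 637279 to 1404896 counts, so 3 counts, the limit a count of 0 allows, are 2.14 to 4.71 CPM in a kept cell. Symbols came from the deposited table (20774) and GENCODE gene names (34410), and promoter sequences from RefSeq.

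The members and gene lists were chosen with earlier results of these data known. Named are the marker and cholinergic genes, the 10 widest differences in each direction (toward the peptide-rich cells among genes without overlap, toward the others among genes meeting the size rule), every neuropeptide, processing and dense-core vesicle gene meeting the size rule, and up to 4 genes of each other list that meet it. Syn1 and Prmt2 are named beyond that limit, and their values under the alternatives are not given. Others are said to be named for another reason or serve as reference values. No count model was fitted, because labels name no animal and each side is 1 sample. Intervals are exact Poisson at 95%, from summed counts. Alternatives changed the pseudocount, the library size, the authors' normalized values, thinning to 300000 counts, filters, thresholds and left-out cells. Scripts ran in Python 3.11.15 with pandas 2.3.3, numpy 2.4.6 and scipy 1.17.1, and were tested on simulated data.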

Additional observations from a re-analysis of the deposited data

How the results depend on the processing

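The differences of Ucn, Npy and Calcb kept their direction in all 24 alternatives, at 4.14 to 6.48, 4.85 to 7.16 and 5.31 to 9.29. Leaving out each kept cell in turn gave 4.68 to 5.59 for Ucn, 5.72 to 6.39 for Npy and 6.95 to 8.25 for Calcb. The number of genes meeting the size rule toward the other cells was 1051 with a pseudocount of 10, compared with 2748. The number of genes with every peptide-rich cell above every other cell was 63, and it was 38 with all 18 LOC cells, 16 with the Calca threshold at 3000 CPM and 308 against only the 4 other cells with the fewest genes detected, an alternative chosen after seeing the data. With 1 cell left out it was 65 to 323, which is larger by construction where a side has fewer cells (303 without LOC08, 246 without LOC15, 323 without LOC18). The size rule gave 1237 to 2003 and 2711 to 3537 genes in the 2 directions with 1 cell left out. Of 104 named genes meeting the rule, 53 met it in every alternative and 3 had a difference of the opposite sign in some alternative: Cck at 0.31 with the Calca threshold at 3000 CPM, Pcsk7 at -0.63 without LOC08 and Isl1 at -0.090 without LOC15. With each cell left out in turn, Pcsk7 ranged from -0.63 to 3.25 and Isl1 from -0.090 to 3.45. The cause was not tested. The identity list without the 3 genes that kept the cells was formed after seeing the data. The 104 named genes include Slc18a3, which is 1 of those 3 genes.

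No paired analysis was possible because the numbers in the labels only name single cells, both sides are LOC cells with different numbers, and no test was made. With 3 cells on the peptide-rich side, and no animals named, the spread between animals is unknown. A gene at 0 in a kept cell may lie below 2.14 to 4.71 CPM there.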

Other observations

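Genes of activity and injury response were higher in the peptide-rich cells in 2 of 24 considered (8.33%) and in the others in 5 (20.8%), beside 7.54% and 15% of all genes. Arc, an immediate early gene, stood at 43.5, 85.3 and 491 CPM against a median of 37.7 CPM and a highest value of 249 CPM, and its difference of 2.71 became 1.71 without LOC18 and no longer met the size rule. Bdnf had no read in the 3 peptide-rich cells and reached 430 CPM in the others, and Atf3 and Gadd45g differed by -2.58 and -2.60. S100a10, the binding partner of Anxa2, stood at 171, 107 and 150 CPM against 0 to 125 CPM with a median of 45.5 CPM. Ly6h, a modulator of nicotinic receptors, stood at 225, 381 and 63.1 CPM against a median of 68.7 CPM and a highest value of 140 CPM. Of 9 Hox genes and cofactors, 0 (beside 7.54% of all genes) were higher in the peptide-rich cells. In the others 3 (33.3%, beside 15%) were higher, Meis2, Hoxb3 and Pbx3. With a pseudocount of 10 the count was 1, beside 1051 of all 18263 genes. Hoxb3 did not meet the rule without LOC03 (-1.12), nor Pbx3 without LOC01 (-0.93).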
